A study of Homo sapiens with 36 samples.

Results

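PPP1R1B, which encodes DARPP-32, and 9 further genes of dopamine synthesis and signalling were followed in RNA-seq counts from human neural stem cells (hNSC) in which MEIS1 or MEIS2 had been activated or knocked out. The 10 genes were chosen by name: PPP1R1B, the dopamine receptors DRD1 and DRD2, the enzymes TH and DBH, the RGS proteins RGS9 and RGS17, the phosphodiesterase PDE10A, the G protein subunit GNAL and the adenosine receptor ADORA2A. The choice was made with earlier results of these data known. All 10 had a row among the 28516 gene symbols of the count table, and 9 were among the 19689 genes with at least 10 counts over all libraries. DRD1 was the exception.

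The cells were a commercial hNSC line, an in vitro stand-in for the progenitors of the developing brain, transduced with lentivirus and harvested 48 h later, with 6 libraries in each of 6 conditions. MEIS1-OE and MEIS2-OE (overexpression) received a CRISPR-activation system, in which a nuclease-dead dCas9-VP64 and an MS2-bound activator are guided to the gene's own promoter. The paper lists 1 activation guide for each gene. The activation control, ctrl-OE, received the same vectors with a non-targeting guide. MEIS1-KO and MEIS2-KO received a Cas9 vector with a mixture of 2 guides against the gene, and ctrl-KO received that vector with a non-targeting guide. The cultures were pools of transduced cells of 1 line, and the sources do not say whether the 6 libraries of a condition came from separate cultures, so p-values measure the spread between these libraries, which may be technical.

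In the striatum, dopamine acting on D1 receptors raises cAMP through the G protein Golf, while D2 receptors lower it. Protein kinase A then phosphorylates DARPP-32, which in that form inhibits protein phosphatase 1 and so prolongs the signal. Phosphodiesterases end it by breaking down cAMP. The RGS proteins chosen here instead act on the side that lowers cAMP, where RGS9 shortens D2 receptor signalling. These genes are best known from mature projection neurons of the striatum (the receptors, DARPP-32, RGS9, PDE10A) and from catecholamine neurons (TH, DBH), not from dividing progenitors.

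Library totals lay between 15429985 and 22940493 counts, with a median of 20324720. Levels are given as CPM after TMM scaling, the count relative to the size of the library, a unit that corrects for library size but not for gene length. MEIS1 averaged 310 ± 14.3 CPM in MEIS1-OE against 17.8 ± 1.10 in ctrl-OE, and 8.96 ± 1.74 in MEIS1-KO against 25.7 ± 1.66 in ctrl-KO (SD, n = 6 each). MEIS2 lay between 793 and 852 CPM in MEIS2-OE, against 22.6 ± 1.23 in ctrl-OE, and averaged 12.1 ± 0.936 in MEIS2-KO against 25.8 ± 1.58 in ctrl-KO. Transcript of the knocked-out gene was therefore reduced and not absent. Among progenitor markers, group means were 112 to 300.3 CPM for SOX2, 909 to 1734 for NES and 1992 to 3065 for VIM. They were 19.1 to 37.2 for PAX6 and 22.2 to 41.2 for FABP7, and HES5 reached at most 0.741. Of the general neuron markers, TUBB3 had group means of 158 to 219 CPM and MAP2 of 241 to 756. Group means of SNAP25 were 1.38 to 5.37, none of DCX or STMN2 passed 0.894, and RBFOX3 had 7 counts over all libraries. Of 9 dopaminergic neuron markers, LMX1A and FOXA2 had 0 counts in every library, no group mean of SLC6A3, SLC18A2, DDC or PITX3 passed 0.270 CPM, and group means were 0.276 to 0.529 for NR4A2 and 0.170 to 0.294 for EN1. Among striatal markers that are not members, GAD2 had 0 counts and PENK, TAC1, ISL1 and BCL11B had 5, 10, 23 and 28 counts over all 36 libraries, PDYN and GAD1 had 130 and 165, whereas EBF1 had group means of 9.20 to 19.3 CPM.

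A count of 3 in a library, taken here as the counting floor, corresponded to 0.121 to 0.201 CPM. PDE10A, GNAL, RGS9 and RGS17 were above it in 36 of 36 libraries, DBH in 29 and PPP1R1B in 14. ADORA2A was above the floor in 6 libraries, TH in 1, and DRD2 and DRD1 in none. The floors, and the intervals named as exact, cover counting error only, whereas the intervals of log2(fold-change) come from the edgeR fit and include the spread between libraries.

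**Figure D1:**
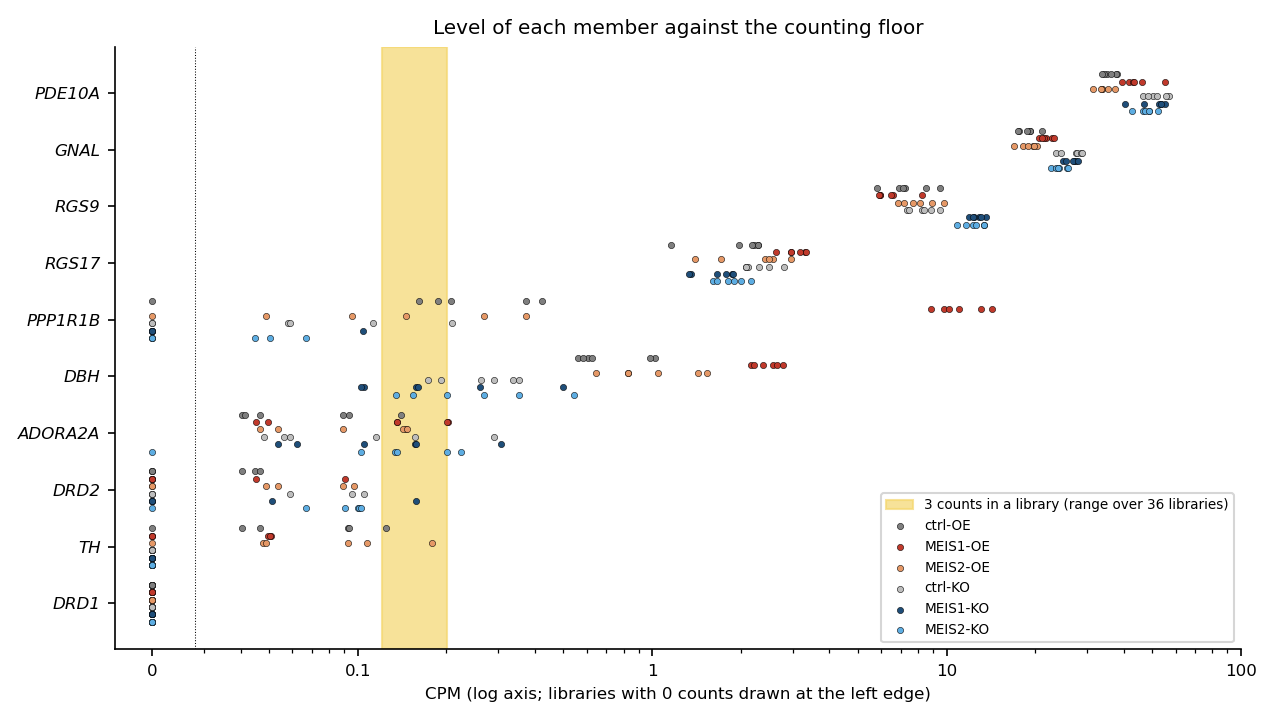
Level of each of the 10 genes in each of 36 libraries, as CPM on a log axis (points, coloured by condition; libraries with 0 counts are drawn at the left edge), with the range of values that 3 counts represent as a yellow band. PPP1R1B is the gene with a single condition far to the right of the others: its MEIS1-OE libraries lie between 8.83 and 14.2 CPM and all others at or below 0.422.

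Per kilobase of annotated exon, the order of levels in ctrl-OE was GNAL (2.31 ± 0.162 CPM per kb), RGS9 (1.07 ± 0.186), PDE10A (0.943 ± 0.0445), DBH (0.266 ± 0.0778), RGS17 (0.255 ± 0.0550) and PPP1R1B (0.0495 ± 0.0336). RGS9 and PDE10A did not differ beyond their spread, nor did DBH and RGS17. In MEIS1-OE the same quantity was 2.46 ± 0.458 for PPP1R1B and 2.67 ± 0.124 for GNAL, so that PPP1R1B, near the bottom of the list in control cells, was within 1 SD of its most abundant gene. The length used is the union of all annotated exons, which for PDE10A (40 annotated transcripts, 37993 exonic bases) exceeds that of any one transcript and lowers its value.

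A member was called where its adjusted p was below 0.05 and its absolute log2(fold-change) above 0.58. The members were chosen with earlier results of these data known, so their shares and medians only describe a selected list. By this rule 3 of the 9 tested members rose in MEIS1-OE (PPP1R1B, DBH and RGS17) and none fell, against 2.84% of all tested genes called there in either direction. DESeq2 called 2 members there, PPP1R1B and DBH, with RGS17 at 0.578. In MEIS2-OE 0 of 9 were called by edgeR and 0 by DESeq2, with 1 at an unadjusted p under 0.05 (DBH), against a background of 0.498%. In MEIS1-KO 1 of 9 was called (RGS9) against 0.290%, and in MEIS2-KO 0 of 9 by edgeR and 1 by DESeq2 (RGS9), with 3 at an unadjusted p under 0.05 (RGS9, RGS17 and GNAL), against 1.58%. The combined MEIS1 contrast, which subtracts the knockout difference from the overexpression difference, called 4 of 9, with PPP1R1B, DBH and RGS17 higher and RGS9 lower, against 1.41%. The MEIS2 contrast called 0 with edgeR and 0 with DESeq2, with 2 at an unadjusted p under 0.05 (RGS9 and RGS17), against 0.985%. Leaving out TH, which had no counts in the knockout system, the median difference of the other 8 tested members was 0.46 in MEIS1-OE, 0.14 in MEIS2-OE, -0.15 in MEIS1-KO and -0.03 in MEIS2-KO, while the median over all tested genes lay between -0.01 and 0.00 in these comparisons. Both overexpression comparisons share the ctrl-OE libraries, and both knockout comparisons share ctrl-KO. Set directly against each other, MEIS1-OE and MEIS2-OE differed in 2 of 9 members (PPP1R1B and DBH, both higher in MEIS1-OE), against 2.70% of all tested genes. RGS9, RGS17, PDE10A and GNAL passed the adjusted p in that comparison (edgeR, 1.38e-04 to 0.0484) and stayed below the fold threshold.

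**Figure D2:**
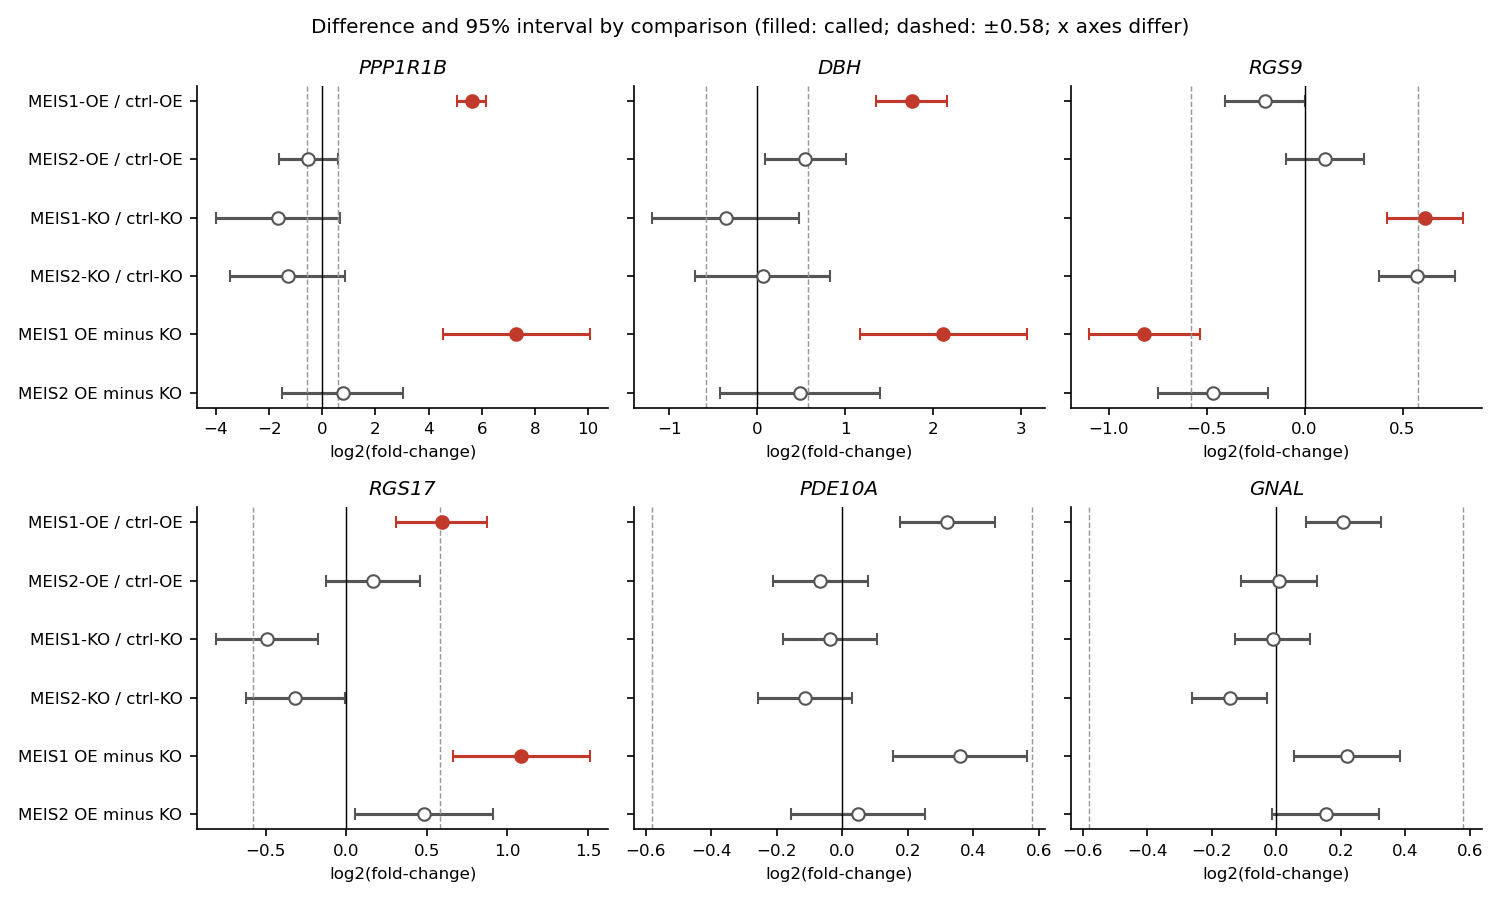
Log2(fold-change) with its 95% interval for the 6 members with the most counts in 6 comparisons (filled red: adjusted p below 0.05 and absolute value above 0.58, which the dashed lines mark; the x axes differ between genes). The called values of PPP1R1B and DBH lie well beyond the dashed lines, while those of RGS17 in MEIS1-OE (0.59) and RGS9 in MEIS1-KO (0.61) lie on them.

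PPP1R1B rose in MEIS1-OE and in no other MEIS treatment. Its transcript had at most 9 counts in any library of the other 5 conditions, where 8 of the 30 libraries were above the floor (5 of ctrl-OE, 2 of MEIS2-OE and 1 of ctrl-KO), and between 178 and 313 counts in every MEIS1-OE library. The gene lies on the plus strand of chromosome 17 (GRCh37, chr17:37782993-37792879), with 10 annotated transcripts and no overlapping annotated gene. In MEIS1-OE the 6 libraries read 9.79, 8.83, 10.2, 13.1, 14.2 and 11.0 CPM. In ctrl-OE they read 0.187, 0.162, 0.208, 0, 0.372 and 0.422 CPM, from at most 9 counts. The lowest MEIS1-OE library was thus far above the highest control, and the difference was a log2(fold-change) of 5.62 (SE 0.263, adjusted p = 1.76e-19, edgeR quasi-likelihood test with Benjamini-Hochberg adjustment over 19689 genes), a 49.2-fold higher level. By size of the fold change it ranked 11 and by p-value 16 among all genes tested. With 1 activation guide listed for MEIS1, an effect of that guide apart from MEIS1 was not tested.

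MEIS2-OE libraries held 0 to 8 counts of PPP1R1B, with a median of 0.121 CPM, and overlapped ctrl-OE entirely. Their difference was -0.52 on the log2 scale (SE 0.549, edgeR adjusted p = 0.968), with a 95% interval from -1.64 to 0.60. The direct comparison of MEIS1-OE with MEIS2-OE gave 6.14 (SE 0.286, edgeR adjusted p = 1.07e-19).

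In the knockout system there was almost no PPP1R1B transcript to lose. Over 6 libraries each, ctrl-KO held 8 counts, MEIS1-KO 2 and MEIS2-KO 3, and no library of either knockout exceeded 2. The ratio of MEIS1-KO to ctrl-KO was 0.253 (95% exact interval 0.0261 to 1.27) and that of MEIS2-KO to ctrl-KO 0.357 (0.0610 to 1.49), so that a decrease was not detectable at this depth. The MEIS1 contrast gave 7.30 (SE 1.35, edgeR adjusted p = 4.57e-04). Its excess over the overexpression difference rests on those 10 counts of MEIS1-KO and ctrl-KO.

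Of the 15 striatal projection neuron markers, 6 of which are members, 11 were tested and 3 rose in MEIS1-OE: PPP1R1B, GAD1 and EBF1. Of all tested genes 2.84% were called there in either direction. GAD1, which makes GABA, was higher by 1.77 (SE 0.372, edgeR adjusted p = 8.92e-04), a 3.42-fold higher level, and the transcription factor EBF1 by 0.64 (SE 0.0877, adjusted p = 7.82e-07), each in 6 of 6 libraries above every control. GAD1, with at most 20 counts in a library, was not called in the MEIS1 contrast at 2.19 (SE 1.03, edgeR adjusted p = 0.343). EBF1 was called in the MEIS1 contrast at 0.94 (edgeR adjusted p = 9.51e-07) and in the MEIS2 contrast at 0.63 (adjusted p = 0.00158). The summed level of the list, members included, was 70.6 to 90.9 CPM in MEIS1-OE and 51.2 to 56.4 in ctrl-OE, with GAD2 and DRD1 at 0. It was 51.9 to 57.7 in MEIS2-OE, 74.9 to 85.5 in ctrl-KO, 66.4 to 87.0 in MEIS1-KO and 70.9 to 80.0 in MEIS2-KO. MEIS1-OE thus overlapped the knockout system, ctrl-KO included. PPP1R1B itself averaged 11.2 CPM of the sum in MEIS1-OE and 0.225 in ctrl-OE, and PDE10A 44.8 and 35.8. Of the progenitor markers HES5, with at most 35 counts in any library, fell by 2.96 in MEIS1-OE (SE 0.675, edgeR adjusted p = 0.00236) and the other 5 were not called. The fall of HES5 was not particular to MEIS1-OE. HES5 was also called lower in MEIS2-OE, at -2.79 (SE 0.660, edgeR adjusted p = 0.0153), and in MEIS2-KO, at -1.60 (adjusted p = 0.0362). The part of these markers in the PPP1R1B difference was not tested.

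The 6 genes next to PPP1R1B with a row in the count table did not share its rise. STARD3 begins 464 bases beyond its end and differed by 0.06 on the log2 scale between MEIS1-OE and ctrl-OE (edgeR adjusted p = 0.762). CDK12 and MED1 on the other side differed by -0.07 and -0.03. TCAP and PNMT, 28723 and 31355 bases away, differed by -0.29 (edgeR adjusted p = 0.604) and 0.56 (adjusted p = 0.267), the latter from 64 counts in ctrl-OE and 88 in MEIS1-OE. PNMT, which makes adrenaline from noradrenaline, is also a gene of the catecholamine pathway. NEUROD2, the nearest gene on that other side, had 0 counts in all libraries. None of the 5 tested neighbours was called in any MEIS comparison.

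**Figure D3:**
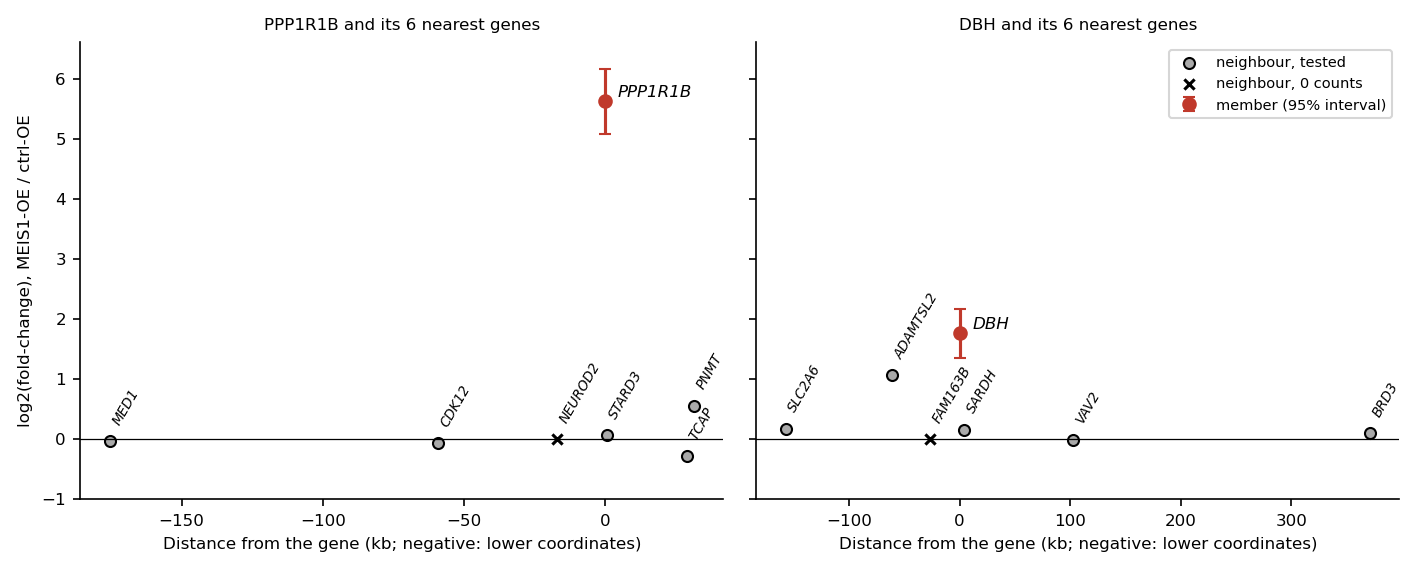
Difference between MEIS1-OE and ctrl-OE (log2(fold-change)) of PPP1R1B and DBH (red, with 95% interval) and of the 3 nearest genes with a row in the count table on each side (grey; crosses have 0 counts and no value), by distance in kb. PPP1R1B at 5.62 stands above neighbours that lie between -0.29 and 0.56, and DBH at 1.76 above neighbours between -0.01 and 1.06.

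The genes whose levels followed PPP1R1B most closely over the 36 libraries were ZNF385C (Pearson r = 0.961 on log2 CPM), RABEP2 (0.954), STAC2 (0.953), ADAR (0.953) and NRBP1 (0.952), among 13463 genes averaging at least 1 CPM. All 5 were highest in MEIS1-OE, where RABEP2 averaged 129 CPM against 11.4 in ctrl-OE and STAC2 19.6 against 1.88. The 36 points share their conditions, and after subtraction of the condition means r was 0.23 for ZNF385C, 0.25 for RABEP2, 0.12 for STAC2, -0.01 for ADAR and 0.37 for NRBP1. STAC2 and ZNF385C lie on the same chromosome as PPP1R1B, 400795 and 2384715 bases away, and the other 3 on other chromosomes.

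Of the dopamine receptors and the adenosine receptor that acts beside D2, none was expressed above the floor in a way that could be compared. DRD1 had 0 counts in 36 libraries, out of 727043861 counts in all, which allows a level of at most 0.0041 CPM. DRD2 had 30 counts in total, never more than 3 in a library, with group sums of 3 in ctrl-OE, 3 in MEIS1-OE, 6 in MEIS2-OE, 5 in ctrl-KO, 4 in MEIS1-KO and 9 in MEIS2-KO. ADORA2A had 85 counts, at most 6 in a library, and group means of 0.0753 to 0.140 CPM. Adjusted p-values of DRD2 and ADORA2A in the 6 MEIS comparisons were all 0.495 or higher (edgeR), and the intervals were wide. That of ADORA2A in MEIS1-OE ran from -0.34 to 1.81 on the log2 scale. The knockout guides, but not the activation guides, were also searched for in these 10 genes and 1000 bases on either side. Up to 4 mismatches before an NGG motif were allowed. A single match was found, to the guide MEIS2-g2 in an intron of ADORA2A on the minus strand (GRCh37, chr22:24823182-24823204). It is shown because it was the only match among the 10 genes, with the site's mismatched bases in capitals:
MEIS2-g2: cccactcagcaggcacccca
ADORA2A site with the motif: cccactGagcagCcTccccCagg
ADORA2A held 14 counts in ctrl-KO and 16 in MEIS2-KO.

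The first enzyme of catecholamine synthesis was not measurable, whereas the enzyme after dopamine was. TH, which makes L-DOPA, had 22 counts over the 18 activation libraries and 0 over the 18 knockout libraries. In ctrl-OE its libraries held 1, 1, 3, 0, 2 and 2 counts, in MEIS1-OE 1, 1, 1, 0, 0 and 0, and in MEIS2-OE 0, 2, 1, 2, 4 and 1. The 3 conditions overlapped, and the ratio of MEIS1-OE to ctrl-OE was 0.358 (95% exact interval 0.0624 to 1.44). With 0 counts on the knockout side no fold can be given for a knockout or for a combined contrast.

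DBH, which converts dopamine to noradrenaline, rose in MEIS1-OE from a low level. Its MEIS1-OE libraries read 2.38, 2.58, 2.16, 2.23, 2.77 and 2.66 CPM and its ctrl-OE libraries 0.561, 0.606, 0.623, 0.581, 1.02 and 0.985. The groups did not overlap, and the difference was 1.76 (SE 0.198, edgeR adjusted p = 1.15e-08), a 3.38-fold higher level. MEIS2-OE lay between them at 0.645 to 1.53 CPM and overlapped ctrl-OE, with a difference of 0.55 (SE 0.225, edgeR adjusted p = 0.463). MEIS1-OE was above MEIS2-OE by 1.21 (SE 0.188, edgeR adjusted p = 9.64e-06). In the knockout system DBH averaged 0.268 CPM in ctrl-KO, 0.214 in MEIS1-KO and 0.276 in MEIS2-KO, from 2 to 12 counts a library, and neither knockout passed the test. The combined MEIS1 contrast was 2.11 (SE 0.464, edgeR adjusted p = 0.00367). Among other noradrenergic neuron markers, SLC6A2 had 1 count over all libraries, and PHOX2A, with 127 and at most 16 in a library, fell by 1.23 in MEIS1-OE (SE 0.400, edgeR adjusted p = 0.0458). The PHOX2A difference in MEIS2-OE was nearly the same, at -1.21 (SE 0.400), and was not called (edgeR adjusted p = 0.200).

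DBH lies on the plus strand of chromosome 9 (GRCh37, chr9:136501485-136524451) and overlaps an antisense gene, DBH-AS1. The kit was stranded, but the strand setting of the counting was not given in the sources used here, so reads of the pair may not be fully separated. DBH-AS1 averaged 0.981 ± 0.192 CPM in MEIS1-OE and 0.694 ± 0.217 in ctrl-OE (SD, n = 6 each), a difference of 0.51 (SE 0.215, edgeR adjusted p = 0.152). Among the neighbours of DBH, ADAMTSL2 was higher in MEIS1-OE by 1.06 (edgeR adjusted p = 0.0576) from 152 counts in all, and SARDH, 4231 bases away, by 0.16 (adjusted p = 0.698). None of the 5 tested neighbours of DBH was called.

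Among the regulators that end G protein signalling, RGS17 was called in MEIS1-OE and RGS9 in MEIS1-KO, and both were called in the combined MEIS1 contrast, with opposite signs. RGS17 belongs to the RZ subfamily, which acts on Gi and Gz subunits, and lies on the minus strand of chromosome 6 (GRCh37, chr6:153325594-153452417). Its MEIS1-OE libraries read 3.30, 3.17, 2.97, 2.63, 2.96 and 3.33 CPM against 2.29, 2.22, 2.28, 2.19, 1.16 and 1.97 in ctrl-OE. The 2 groups did not overlap, and the difference was 0.59 (SE 0.139, edgeR adjusted p = 0.00305), only just above the fold threshold of 0.58. Without ctrl-OE replicate 5, the low library at 1.16 CPM, it was 0.48 (edgeR adjusted p = 0.0123) and fell below that threshold. In MEIS1-KO all 6 libraries, at 1.33 to 1.89 CPM, lay below the lowest ctrl-KO library at 2.08, with a difference of -0.49 that did not pass the adjustment over all genes (SE 0.155, edgeR adjusted p = 0.115). The MEIS1 contrast, which adds up both, was 1.09 (SE 0.208, edgeR adjusted p = 7.29e-04). In MEIS2-OE and MEIS2-KO the differences were 0.17 (edgeR adjusted p = 0.951) and -0.32 (adjusted p = 0.197).

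RGS9, whose striatal form shortens D2 receptor signalling together with GNB5 and a membrane anchor, lies on the plus strand of chromosome 17 (GRCh37, chr17:63096930-63223821). It was higher in both knockouts. In ctrl-KO its libraries read 8.27, 7.31, 7.48, 8.38, 8.83 and 9.47 CPM, in MEIS1-KO 12.9, 12.0, 12.4, 13.6, 12.3 and 13.1, and in MEIS2-KO 12.3, 11.7, 10.8, 13.4, 12.6 and 13.4. No knockout library of either gene overlapped ctrl-KO. RGS9 rose in MEIS1-KO by 0.61 (SE 0.0960, edgeR adjusted p = 3.15e-04). In MEIS2-KO it was higher by 0.57 (SE 0.0958, edgeR adjusted p = 1.22e-04), just below the fold threshold. Both values lie so close to 0.58 that the call turned with the processing: MEIS1-KO lost it with DESeq2 and shrunken fold changes (0.558) and without ctrl-KO replicate 2 (0.577), and MEIS2-KO gained it in 8 of 20 alternatives. In the activation system the libraries of all 3 conditions overlapped, at 5.80 to 9.79 CPM, with differences of -0.20 in MEIS1-OE (edgeR adjusted p = 0.242) and 0.11 in MEIS2-OE (adjusted p = 0.960). The MEIS1 contrast was -0.82 (SE 0.138, edgeR adjusted p = 1.20e-04) and the MEIS2 contrast -0.47 (SE 0.137, adjusted p = 0.0548). Of the neighbours of RGS9 and RGS17, 5 and 4 were tested and none was called in a MEIS comparison.

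The promoter table used here (RefSeq, GRCh38.p14, 250 bases before to 50 after each start) held 6 of the 10 genes and had no entry for PPP1R1B, DRD2, TH or ADORA2A. Each was searched on both strands for TGACAG, the core of the motif that MEIS proteins bind, and for TGACGT, the core of the cAMP response element. TGACAG was present in 15.8% of all 35116 promoters and TGACGT in 7.98%. The 2 motifs share their first 4 letters and do not overlap in any promoter printed here. The promoters of the 3 called genes that had an entry are shown with any match in capitals, together with that of DRD1, which had 0 counts but was the only member promoter with TGACAG (83 bases before the start, as CTGTCA on the printed strand). DBH held TGACGT 181 bases before its start, and neither motif was found in RGS17 or RGS9:
DBH, chr9:133636113-133636412, plus strand: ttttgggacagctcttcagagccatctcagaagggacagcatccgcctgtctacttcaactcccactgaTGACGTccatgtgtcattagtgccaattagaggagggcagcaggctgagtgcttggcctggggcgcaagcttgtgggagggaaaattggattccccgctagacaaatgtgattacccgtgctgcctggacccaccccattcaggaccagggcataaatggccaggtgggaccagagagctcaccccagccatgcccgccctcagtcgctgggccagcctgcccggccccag
RGS17, chr6:153131233-153131532, minus strand: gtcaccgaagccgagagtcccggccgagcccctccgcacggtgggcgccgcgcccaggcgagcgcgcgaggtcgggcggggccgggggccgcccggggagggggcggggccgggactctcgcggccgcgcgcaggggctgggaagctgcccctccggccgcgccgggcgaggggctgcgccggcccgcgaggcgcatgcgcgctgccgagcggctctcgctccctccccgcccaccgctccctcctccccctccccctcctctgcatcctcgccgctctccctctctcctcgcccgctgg
RGS9, chr17:65137120-65137419, plus strand: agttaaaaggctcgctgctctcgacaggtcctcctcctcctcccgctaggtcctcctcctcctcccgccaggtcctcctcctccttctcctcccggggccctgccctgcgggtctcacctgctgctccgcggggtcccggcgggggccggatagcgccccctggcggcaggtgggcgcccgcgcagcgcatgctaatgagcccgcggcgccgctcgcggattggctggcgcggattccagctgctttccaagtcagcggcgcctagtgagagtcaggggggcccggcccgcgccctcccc
DRD1, chr5:175444133-175444432, minus strand: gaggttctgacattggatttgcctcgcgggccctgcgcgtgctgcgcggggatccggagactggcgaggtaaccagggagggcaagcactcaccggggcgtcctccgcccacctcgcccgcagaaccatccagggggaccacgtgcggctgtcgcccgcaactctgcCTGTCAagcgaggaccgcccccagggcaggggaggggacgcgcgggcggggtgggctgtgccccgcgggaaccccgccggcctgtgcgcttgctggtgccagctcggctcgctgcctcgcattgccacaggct
These matches are a description of the letters in these windows.

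PDE10A and GNAL, which had the most counts of the 10 genes, differed by small amounts. PDE10A, the phosphodiesterase that breaks down cAMP and cGMP in striatal neurons, was measured at 39.5 to 55.2 CPM in MEIS1-OE (median 43.1) and 33.8 to 37.8 in ctrl-OE (median 35.7), without overlap. It was higher by 0.32 (SE 0.0706, edgeR adjusted p = 0.00155), below the fold threshold. GNAL, the alpha subunit of Golf, was measured at 20.5 to 23.2 CPM in MEIS1-OE and 17.5 to 21.1 in ctrl-OE, with 5 of 6 libraries above every control. Its difference was 0.21 (SE 0.0573, edgeR adjusted p = 0.0143), again below the fold threshold. Neither gene passed the adjusted p in MEIS2-OE, MEIS1-KO or MEIS2-KO, where PDE10A differed by -0.07, -0.04 and -0.11 and GNAL by 0.01, -0.01 and -0.14. In the MEIS1 contrast PDE10A was higher by 0.36 (SE 0.0995, edgeR adjusted p = 0.0320), below the fold threshold. GNAL was higher there by 0.22 (SE 0.0806, edgeR adjusted p = 0.158).

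**Figure D4:**
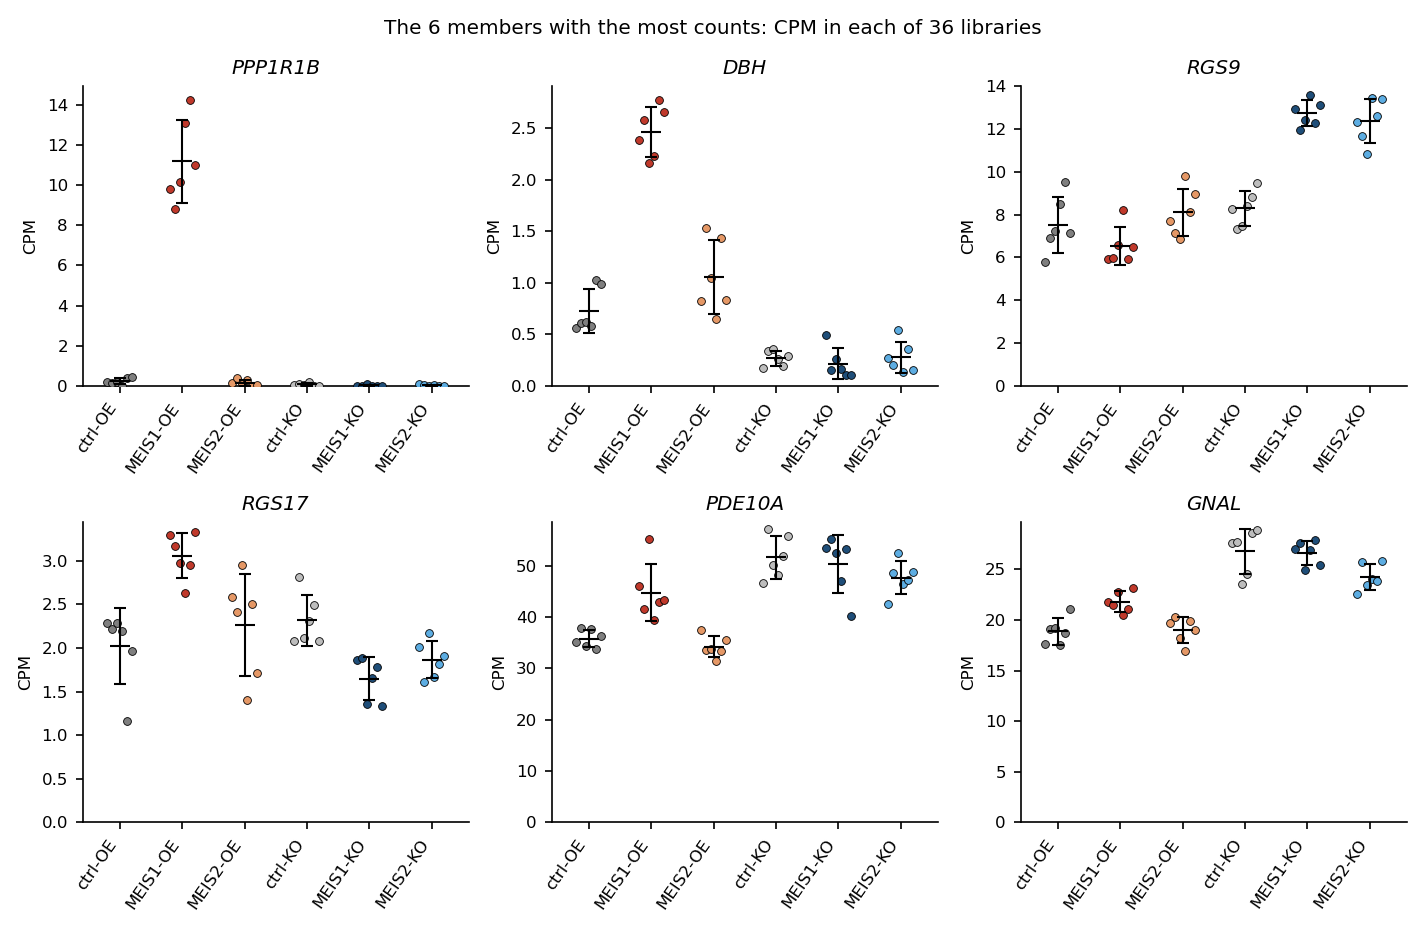
CPM of the 6 members with the most counts in each library (points; each condition has 6) with the mean and SD of the condition (bars). PPP1R1B and DBH are highest in MEIS1-OE, at means of 11.2 and 2.46 CPM, whereas RGS9 is highest in the 2 knockouts, at 12.7 and 12.4.

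Several of the 10 genes differed between the 2 vector systems in the absence of a targeting guide. These controls, ctrl-OE and ctrl-KO, differ in vectors and enzyme, whose parts in a difference cannot be told apart. The paper lists a non-targeting guide without saying which system it served. Between ctrl-OE and ctrl-KO 22.1% of all tested genes were called. Of the members, DBH was higher in ctrl-OE by 1.42 (SE 0.304, edgeR adjusted p = 1.35e-04), with no overlap between the groups. PPP1R1B was higher by 1.56 (SE 0.669, edgeR adjusted p = 0.0490) from 30 against 8 counts, a call that was lost in 12 of 20 alternatives, and TH had 9 against 0 counts (95% exact interval of the ratio from 1.64 upwards), with no library above the floor. PDE10A and GNAL were lower in ctrl-OE by the same measure, at -0.53 (edgeR adjusted p = 4.75e-08) and -0.51 (adjusted p = 1.08e-09), below the fold threshold. The difference of DBH between MEIS1-OE and its own control thus sat on a control level of 0.730 CPM, while the MEIS1-KO difference sat on 0.268. Whether the vector system alters the response to MEIS1 was not tested.

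In the rest of dopamine and cAMP signalling, 6 genes were called in MEIS1-OE and 1 in MEIS2-OE. Of 74 further genes of these pathways 70 were tested. This list, too, was chosen with earlier results of these data known. In MEIS1-OE 3 rose and 3 fell, against 2.84% of all tested genes called, in MEIS2-OE 1 rose, against 0.498%, and in MEIS2-KO 1 rose and 1 fell, against 1.58%. In MEIS1-KO 0 were called by edgeR and 0 by DESeq2, with 9 at an unadjusted p under 0.05, against 0.290%. The list's median difference was 0.02 in MEIS1-OE and 0.03 in MEIS2-OE. The 7 genes of amine synthesis and its cofactor included 1 that fell in MEIS1-OE: GCH1, which makes the first step of the tetrahydrobiopterin that TH needs, averaged 10.3 ± 0.470 CPM against 15.8 ± 1.76 in ctrl-OE (SD, n = 6 each), a difference of -0.62 (SE 0.0816, edgeR adjusted p = 4.47e-07). GCH1 was higher in ctrl-OE than in ctrl-KO by 2.04 (edgeR adjusted p = 1.21e-20). None of the 14 G proteins and cyclases, the 6 transporters and breakdown enzymes tested or the 4 further receptors tested was called in a MEIS comparison.

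Of the 8 further RGS proteins and anchors tested, 2 rose and 1 fell in MEIS1-OE and 1 fell in MEIS2-KO, beside the shares of 2.84% and 1.58% over all tested genes. RGS4, a brake on Gi and Gq signalling, averaged 1.25 ± 0.311 CPM in MEIS1-OE against 0.644 ± 0.148 in ctrl-OE, a rise of 0.94 (SE 0.179, edgeR adjusted p = 2.71e-04). RGS8 rose by 1.32 in MEIS1-OE (SE 0.388, edgeR adjusted p = 0.0235), from 28 to 66 counts over 6 libraries, and fell by 1.06 in MEIS2-KO (SE 0.277, adjusted p = 0.0104), from 146 to 73. It was called in both combined contrasts, at 2.26 for MEIS1 and 2.06 for MEIS2 (edgeR adjusted p = 0.00236 and 0.0134). RGS9BP, the membrane anchor of RGS9 in the retina, fell in MEIS1-OE (edgeR adjusted p = 0.00826) from 16 counts in ctrl-OE to 1, a ratio of 0.0672 (95% exact interval 0.00160 to 0.432). Its libraries held 0 to 6 counts in ctrl-OE and 0 to 1 in MEIS1-OE, and the call was not made by DESeq2.

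Of the phosphodiesterases, PDE2A rose by 0.81 in MEIS1-OE (SE 0.229, edgeR adjusted p = 0.0175) and PDE1A fell by 0.73 (SE 0.157, adjusted p = 0.00127). PDE8B, which hydrolyses cAMP, was the one gene of the list called in MEIS2-OE: 139 counts against 16 in ctrl-OE, a difference of 3.18 (SE 0.314, edgeR adjusted p = 2.09e-09). It was also called in the MEIS2 contrast at 3.78 (edgeR adjusted p = 4.70e-06), and 17 counts were found in MEIS1-OE. PDE4C rose in MEIS2-KO by 0.74 (SE 0.120, edgeR adjusted p = 9.08e-05) and was lower in the MEIS2 contrast by 0.71 (adjusted p = 0.0154), and PDE4A was lower in the MEIS1 contrast by 0.60 (SE 0.128, adjusted p = 0.00246). Among 19 kinases, phosphatases and inhibitors, the pathway layer on which DARPP-32 itself acts, the single call was PPP1CB, a catalytic subunit of protein phosphatase 1, at 0.61 in the MEIS2 contrast (SE 0.118, edgeR adjusted p = 0.00139).

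**Figure D5:**
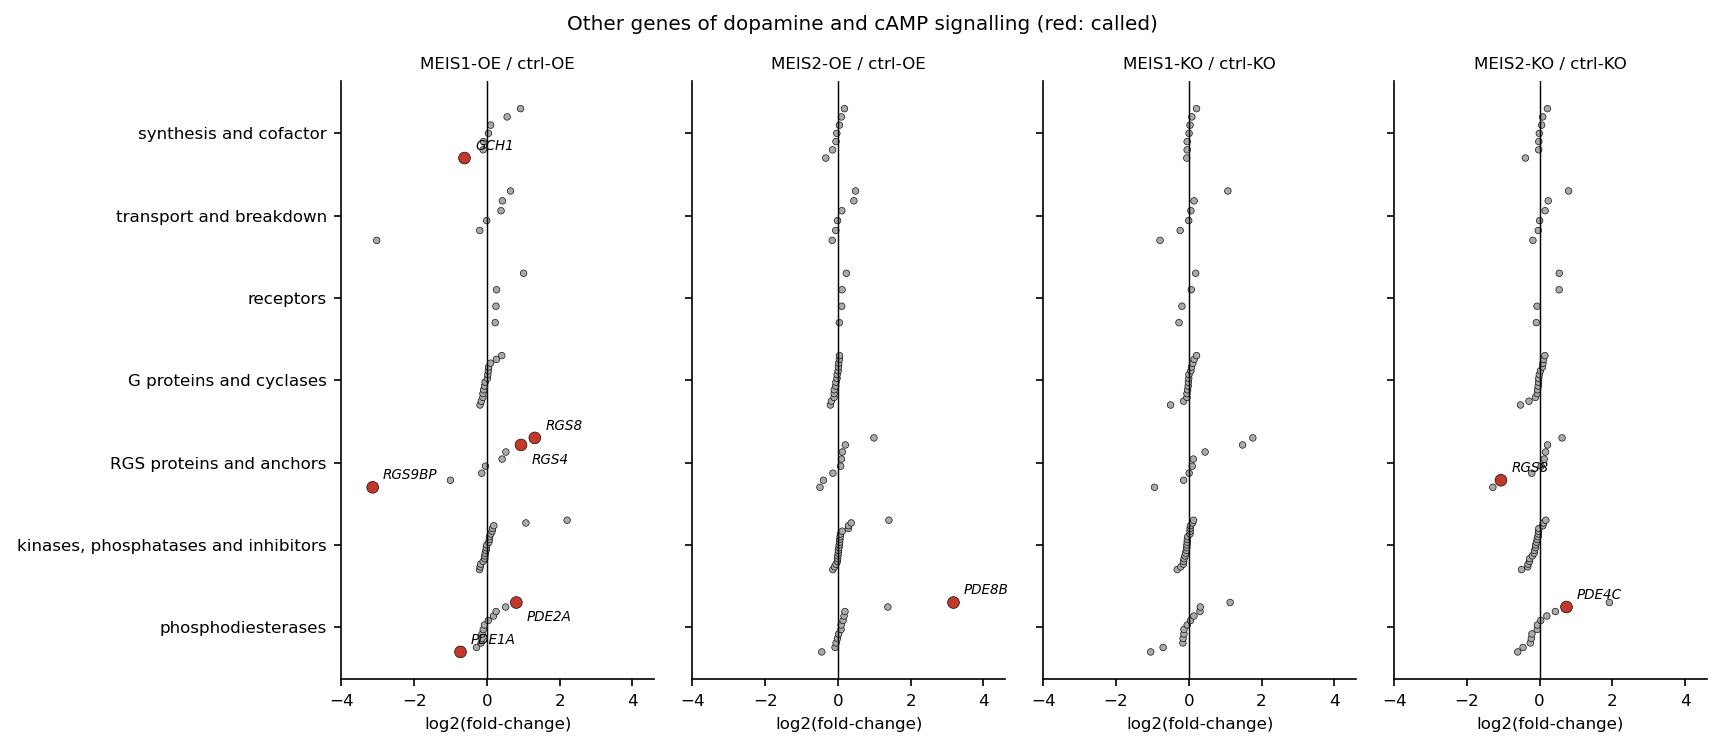
Log2(fold-change) of the 70 tested genes of dopamine and cAMP signalling that are not among the 10, by role (rows) and comparison (panels; red and named: called). Most points lie near 0 in every panel, with PDE8B at 3.18 in MEIS2-OE and RGS9BP at -3.14 in MEIS1-OE farthest out.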

How the data were processed

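Total RNA of 36 hNSC libraries was sequenced in paired ends of 100 bases after stranded mRNA preparation. The deposited file holds whole-number read counts per gene symbol: the authors aligned the reads to hg19 with STAR (2.4.2a in the design text, 2.7.0a beside Trimmomatic 0.39 in the submitters' processing notes) and counted them with HTSeq 0.6.0. The gene annotation and strand setting were not given in the sources used here. The authors' own test was DESeq2 1.34.0.

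From these counts, genes with at least 10 counts over 36 libraries were fitted in one model of the 6 conditions (edgeR 4.0.16, glmQLFit and glmQLFTest, TMM scaling, prior count 0.125, R 4.3.3), two-sided, with Benjamini-Hochberg adjustment over 19689 genes. Calls needed an adjusted p below 0.05 and an absolute log2(fold-change) above 0.58. On simulated counts for MEIS1-OE against ctrl-OE (19564 genes), 200 of 200 changed genes were recovered with 2 false calls. The changed genes averaged at least 10 counts a library, their differences were set well above 0.58, and every gene had the same spread. Differences near 0.58 and genes with fewer counts were not tried, so the recovery does not bear on such calls. DESeq2 1.42.0 was an alternative, beside other scalings, filters and samples left out. Library totals of 15429985 to 22940493 counts set a floor of 3 counts at 0.121 to 0.201 CPM, and exact binomial intervals were used for ratios of low counts.

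All 10 members were named in every comparison. Of 74 further pathway genes, those called in a MEIS comparison were named, at most 3 of smallest p per direction, with the 3 nearest genes with counts table rows on each side of called members, and the 5 genes most like PPP1R1B (log2 CPM, prior count 2). Members and lists were chosen with earlier results of these data known. Positions came from GENCODE lifted to GRCh37. The activation guides were not searched for here.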

Additional observations from a re-analysis of the deposited data

Results flagged for a closer look

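In 39 sets of 6 libraries (a gene in a condition, above the floor), 2 libraries stood apart from the other 5 by more than Dixon's critical value of 0.625, and chance marks about 1 set in 20. The RGS9 level of MEIS1-OE replicate 4 was 8.22 CPM, with the nearest other library at 6.59. The RGS17 level of ctrl-OE replicate 5 was 1.16 CPM, from 25 counts, with the nearest other library at 1.97, and the RGS17 difference in MEIS1-OE fell below the fold threshold without it. Between MEIS1-OE and MEIS2-OE, 2 genes passed both the adjusted p and the fold threshold, by edgeR's quasi-likelihood test. They were PPP1R1B, by 6.14 on the log2 scale (edgeR adjusted p = 1.07e-19), and DBH, by 1.21 (edgeR adjusted p = 9.64e-06). Each was higher in 6 of 6 MEIS1-OE libraries than in any MEIS2-OE library. RGS9, RGS17, PDE10A and GNAL passed the adjusted p and not the fold threshold.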

How the results depend on the processing

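The rises of PPP1R1B and DBH in MEIS1-OE were called in all 20 alternatives tried for each, at 5.14 to 5.88 and 1.64 to 1.87 on the log2 scale (adjusted p up to 1.59e-10 and 1.30e-06). RGS17 in MEIS1-OE kept its direction at 0.44 to 0.63 (adjusted p 0.00199 to 0.0182), and fell below the fold threshold in 7 of 20. The number of members called in MEIS1-KO was 0 with DESeq2 and ashr shrinkage, and 0 to 1 when each library was left out in turn, with 0 without ctrl-KO replicate 2. In MEIS2-KO it was 1 (RGS9) with RLE size factors, with unshrunken DESeq2 and with only the groups compared, and 0 to 1 when each library was left out, with 1 without ctrl-KO replicates 4, 5 or 6 or MEIS2-KO replicates 2 or 3. RGS9 itself ranged over 0.56 to 0.65 in MEIS1-KO and 0.53 to 0.62 in MEIS2-KO, a range that holds the threshold of 0.58. Between ctrl-OE and ctrl-KO it was 1 (DBH) with only the groups compared, and PPP1R1B ranged from 0.88 to 2.22 (adjusted p 0.0127 to 0.128). With a replicate block the counts of members called in the 6 MEIS comparisons were the same, and between ctrl-OE and ctrl-KO PPP1R1B had an adjusted p of 0.0531. The labels link libraries of different conditions only by a replicate number, which the main fit did not use. The r of their deviations was above 0.1 in 46 of 90 pairs with the same number, with a mean of 0.0993 against -0.0210 for other pairs. Libraries with the same number were thus somewhat more alike, and what they share is not stated. Depth limits DRD1, DRD2, TH and ADORA2A in all conditions and PPP1R1B outside MEIS1-OE.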
